A study of Mus musculus with 2 samples.

Results

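The genes described here encode the opioid and tachykinin peptides of the striatum and the receptors they act on: the precursors Penk, Pdyn, Pnoc and Tac1, the opioid-family receptors Oprm1, Oprd1, Oprk1 and Oprl1, and the tachykinin receptor Tacr1. They were chosen by name, and all 9 were among the 32531 gene symbols in the count files. RNA came from dorsal striatum of mice that had worked for intravenous cocaine in long daily sessions. The escalating group had raised its intake and the nonescalating group had not. All animals carried the Drd1-EGFP/Rpl10a transgene of line CP73, on an FVB/N-Swiss Webster background bred to C57BL/6 for at least 9 generations. The transgene is a BAC that tags ribosomes in cells using the Drd1 promoter, but the RNA measured was the input, that is, total RNA of the whole dissected tissue. Each group was 1 library. The number, age and sex of the mice, the cocaine dose and any pooling were not given in the sources used here.

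Opioid and tachykinin peptides are cut from long precursor proteins inside dense-core vesicles and act on G protein-coupled receptors. In the striatum, projection neurons that express the dopamine receptor Drd2 make enkephalin from Penk, while those that express Drd1 make dynorphin from Pdyn and substance P from Tac1. Enkephalins act mainly on the delta and mu receptors (Oprd1, Oprm1), dynorphins on the kappa receptor (Oprk1), nociceptin from Pnoc on Oprl1, and substance P on Tacr1. The mu receptor is known for marking striosomes, patches of striatum set in the larger matrix, and Tacr1 for its place on cholinergic and somatostatin interneurons.

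The coding sequences below are shown because they are what the Pdyn and Tac1 reads stand for. They were read from GENCODE M21 transcripts (GRCm38, the same build as mm10) and run 5′ to 3′ on the coding strand. From the Pdyn reading frame of 248 codons, the stretches that open dynorphin A and dynorphin B are shown, each with the codons for the opioid core Tyr-Gly-Gly-Phe in capitals. They lie on the minus strand at chr2:129688103-129688150 and chr2:129688046-129688093.
Pdyn, dynorphin A: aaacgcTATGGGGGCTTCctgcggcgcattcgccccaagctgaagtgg
Pdyn, dynorphin B: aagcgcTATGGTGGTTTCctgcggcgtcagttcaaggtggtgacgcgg
The Tac1 reading frame of 130 codons held 2 copies of the tachykinin core, Phe, any residue, Gly, Leu and Met, again in capitals, which close substance P and neurokinin A. The capitals lie on the plus strand at chr6:7556750-7556764 and chr6:7559116-7559130.
Tac1, substance P: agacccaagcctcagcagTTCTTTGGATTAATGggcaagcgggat
Tac1, neurokinin A: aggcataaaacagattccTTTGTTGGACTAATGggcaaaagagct
Each opioid core shown follows the codons for a basic pair of residues, and each tachykinin core is followed by a glycine codon and a basic pair, the marks at which precursor-processing enzymes cut and amidate.

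Reads counted to genes came to 9548358 in the escalating library and 9376097 in the nonescalating library. CPM below are counts divided by the TMM-scaled library size, and their intervals are 95% counting intervals, which leave out variation between animals. With 1 library per group there is no spread between replicates to set a difference against; no p-value was computed, and what follows describes a pair of libraries rather than the conditions. A gene counted as measured with at least 50 reads over both libraries, and as called when it differed by at least 1.5-fold and its interval excluded 1. Reads overlapping more than 1 gene made up 8.06% of all listed reads in the escalating library and 18.9% in the nonescalating library. Reads that fell in no gene went the other way, at 28.6% in the escalating library and 18.1% in the nonescalating library. Glial RNA differed widely: all 16 microglia markers and all 15 astrocyte markers were called lower in the escalating library, and the summed CPM was 36.5 against 1687 for microglia (2 markers at 0 in the escalating library) and 2621 against 17435 for astrocytes. Slc1a2 alone made up 1421 against 13256 CPM of the astrocyte sum. Oligodendrocyte markers were lower for 9 of 14, summing to 1756 against 4329 CPM, and endothelial markers for 11 of 12, summing to 89.1 against 190 CPM. Total-read scaling called lower 16 of 16 microglia, 13 of 15 astrocyte, 6 of 14 oligodendrocyte and 7 of 12 endothelial markers, beside 9.41% of all measured genes. Cortical excitatory neuron markers were called higher for 5 of 9 and lower for 2, beside 9.33% higher and 17.1% lower of all measured genes. Their summed level was 173 against 256 CPM, but a single gene, Rorb, made up 46.8 against 162 CPM of it. The lower sum thus rests on Rorb. Of 30 pan-neuronal genes 5 were called higher and 0 lower, with a median log2 ratio of 0.30. The part of these differences in the values below was not tested. Fewer cells of a type and less RNA per cell cannot be told apart in tissue RNA.

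Of the 8 opioid and tachykinin genes measured, 0 were called higher and 1, Oprl1, was called lower in the escalating library. Of all 12213 measured genes 26.5% were called, 9.33% higher and 17.1% lower, so a single call among 8 genes is not above that background. The 8 log2 ratios of escalating over nonescalating ran between -0.59 and 0.08, with a median of -0.25; 7 were negative with TMM scaling and 3 (Penk, Oprd1 and Oprl1) with total assigned reads. Over all measured genes the median was 0.02 with TMM scaling, and the middle of the distribution, between the quartiles, ran from -0.40 to 0.32. With total assigned reads the median of all measured genes was 0.38, and with the pan-neuronal median it was -0.28. For 5 genes (Pdyn, Tac1, Oprm1, Oprk1 and Tacr1) the whole counting interval lay within 1.5-fold in both directions, as it did for 39.8% of all measured genes. The interval lay wholly below 1 for 5 genes (Penk, Pdyn, Oprd1, Oprl1 and Tacr1), against 29.4% of all measured genes, and wholly above 1 for 0, against 27.2%. Scaling set much of this: with total assigned reads, every ratio was 0.36 higher on the log2 scale, 0 of the 8 genes were called, and 40.9% of all measured genes were (31.5% higher and 9.41% lower). When the libraries were set equal on the median pan-neuronal gene instead, every ratio was 0.30 lower, and 4 of the 8 genes (Penk, Oprd1, Oprl1 and Tacr1) were called lower, against 32.1% of all measured genes called (2.62% higher and 29.5% lower).

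**Figure D1:**
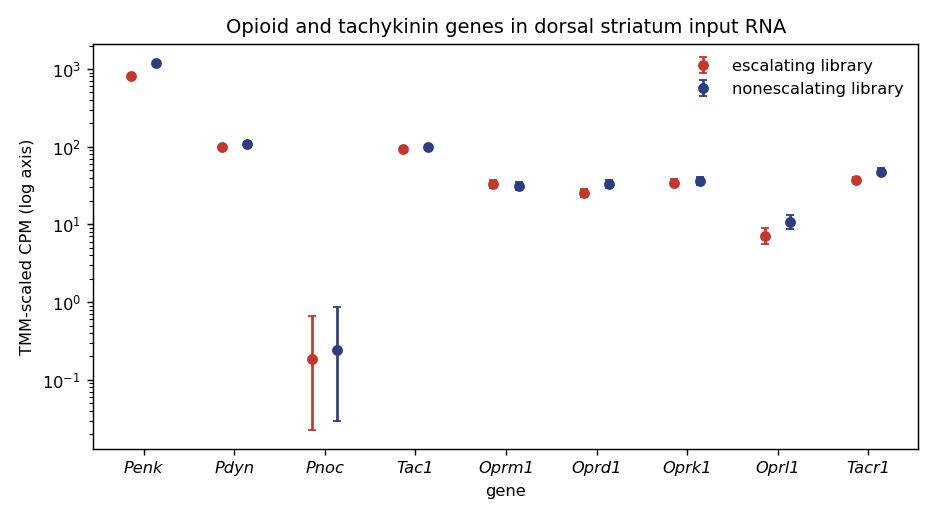
Level of each gene in both libraries as TMM-scaled CPM on a log axis; points are the libraries and bars the 95% counting interval. The intervals of the libraries do not overlap for Penk (801 CPM, escalating, against 1191 CPM, nonescalating), Oprd1 (25.2 against 33.5) and Tacr1 (37.2 against 47.5). Over all measured genes the interval of the ratio lay wholly below 1 for 29.4% and wholly above 1 for 27.2%. Pnoc had 2 reads in each library.

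Among the precursors, Penk was by far the most abundant per kilobase, was lower in the escalating library under every scaling tried, and had the narrowest counting interval of the family. Penk, the precursor of Met- and Leu-enkephalin (chromosome 4, 4133531 to 4138819, minus strand), had 8666 reads in the escalating library and 9854 in the nonescalating library, or 801 CPM (784 to 818) against 1191 CPM (1168 to 1215). The escalating value was thus 1.49-fold lower (1.44 to 1.53), just under the threshold, and its log2 ratio of -0.57 lay at percentile 18.2 of all measured genes. With total-read scaling the log2 ratio was -0.21, and with the pan-neuronal median it was -0.87, past the threshold. Per kilobase of annotated exon, its level of 490 CPM ranked 13th of 23155 genes in the escalating library, and its 729 CPM ranked 6th in the nonescalating library. A830012C17Rik, an antisense transcript, covers 14.3% of the annotated Penk exon bases, and the sources used here do not say whether counting used strand, so reads from it cannot be told apart from Penk reads there.

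Pdyn and Tac1, which mark the Drd1 neurons, had ratios near 1. Pdyn, the dynorphin precursor (chromosome 2, 129686565 to 129699844, minus strand), had 1070 reads in the escalating library against 901 in the nonescalating one, or 98.9 CPM (93.0 to 105) against 109 CPM (102 to 116). Its ratio was 0.91 (0.83 to 0.99), a difference far under 1.5-fold. Tac1, the substance P precursor (chromosome 6, 7554879 to 7565834, plus strand), had 1013 and 808 reads in the escalating and nonescalating libraries, or 93.6 CPM (87.9 to 99.6) against 97.7 CPM (91.0 to 105). Its ratio of 0.96 (0.87 to 1.05) had an interval that included 1. With total-read scaling the log2 ratios of Pdyn and Tac1 turned positive, at 0.22 and 0.30, below the median of 0.38 over all measured genes.

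Pnoc, the nociceptin precursor (chromosome 14, 65400673 to 65425472, minus strand), had 2 reads in each library. A count of 0 would allow 3 reads, equal to 0.277 CPM for the escalating library and 0.363 CPM for the nonescalating one, so Pnoc lay under that limit in both and its ratio could not be measured at this depth. The remaining precursors of both families were also near 0: Pomc, which encodes beta-endorphin, had 11 reads in the escalating library and 4 in the nonescalating one, Tac2, the neurokinin B precursor, 5 and 17, and Tac4 0 and 2.

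Per kilobase, Penk made up 88.6% of the summed level of the 7 opioid and tachykinin precursors in the escalating library and 91.4% in the nonescalating library. Pdyn followed with 6.19% and 4.73%, and Tac1 with 4.98% and 3.60%. Set among 24 neuropeptide precursors, Penk ranked 1st in both libraries, Sst, the somatostatin precursor, 2nd, Pdyn 3rd and Tac1 4th. Sst had 125 CPM per kilobase in the escalating library against 123 in the nonescalating one, against 34.3 and 37.7 for Pdyn and 27.5 and 28.7 for Tac1. With the longest transcript as the length in place of all annotated exons, Tac1 stood above Pdyn, at 47.4 against 41.4 CPM per kilobase in the escalating library and 49.4 against 45.6 in the nonescalating library, so the order of that pair depends on the gene model. The sources used here do not name the annotation behind the deposited counts.

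**Figure D2:**
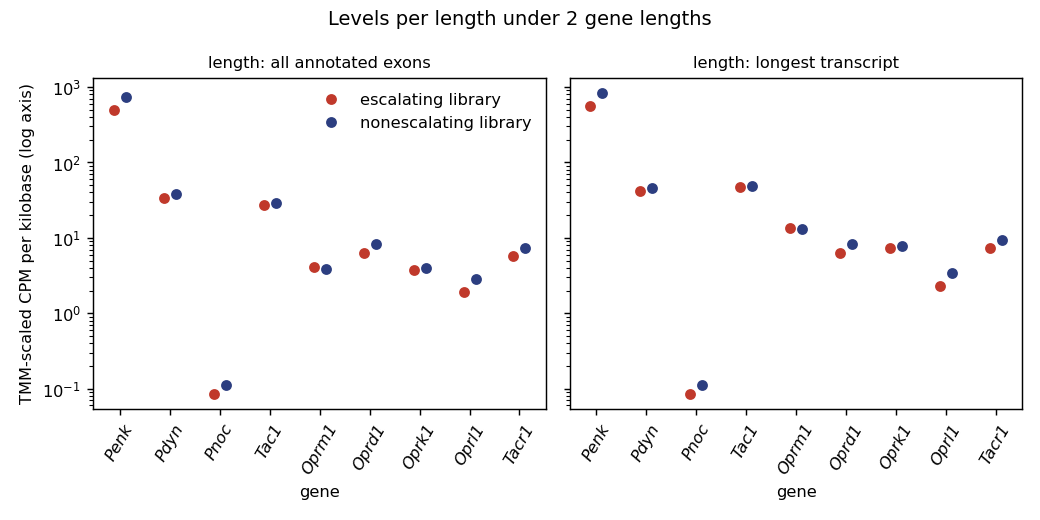
TMM-scaled CPM per kilobase on a log axis, with gene length taken as all annotated exons (left) or as the longest transcript (right); each point is 1 library. The order of the receptors depends on the length used: Oprm1 had 4.13 CPM per kilobase in the escalating library on the left and 13.7 on the right.

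The 5 receptors stood below Penk, Pdyn and Tac1 per kilobase, and with TMM scaling none differed by more than 1.51-fold. Oprm1, the mu opioid receptor (chromosome 10, 6758506 to 7038198, plus strand), had 359 reads in the escalating library and 259 in the nonescalating one, or 33.2 CPM (29.8 to 36.8) against 31.3 CPM (27.6 to 35.4). Its log2 ratio was 0.08, with an interval from -0.15 to 0.32; total-read scaling gave 0.44 and the pan-neuronal median -0.22. Only 1.19% of its exon bases are shared with Ipcef1, a gene on the opposite strand that had 165 and 106 reads in the escalating and nonescalating libraries.

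Oprk1, the kappa receptor (chromosome 1, 5588466 to 5606131, plus strand), had 372 reads in the escalating library against 302 in the nonescalating one, at 34.4 CPM (31.0 to 38.1) against 36.5 CPM (32.5 to 40.9). Its ratio was 0.94 (0.81 to 1.10), so the kappa receptor and its ligand precursor Pdyn had ratios whose intervals overlapped. Oprd1, the delta receptor (chromosome 4, 132110726 to 132144486, minus strand), had 273 and 277 reads in the escalating and nonescalating libraries, at 25.2 CPM (22.3 to 28.4) against 33.5 CPM (29.7 to 37.7). It was 1.33-fold lower in the escalating library (1.12 to 1.57), under the threshold, and past it with the pan-neuronal median (log2 ratio -0.71).

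Oprl1, the nociceptin receptor (chromosome 2, 181715016 to 181720985, plus strand), was the lowest of the 5 receptors per kilobase, with 77 reads in the escalating library and 89 in the nonescalating one, or 7.12 CPM (5.62 to 8.89) against 10.8 CPM (8.64 to 13.2). It was called lower, at 1.51-fold (1.10 to 2.08), but its value sat at the threshold: with total-read scaling, upper-quartile scaling or a pseudocount of 5 it was not called. Tacr1, the substance P receptor (chromosome 6, 82402334 to 82560104, plus strand), had 403 reads in the escalating library against 393 in the nonescalating one, at 37.2 CPM (33.7 to 41.1) against 47.5 CPM (42.9 to 52.4), which was 1.28-fold lower (1.11 to 1.47). That sign depended on scaling, as did the median of all measured genes (0.38 with total reads and -0.28 with the pan-neuronal median). The log2 ratio of Tacr1 was 0.0099 with total reads and -0.65, called lower, with the pan-neuronal median. Of its relatives, Tacr3, the neurokinin B receptor, had 39 and 58 reads in the escalating and nonescalating libraries and was called lower, with a ratio of 0.51 (0.33 to 0.78), while Tacr2 had 0 reads in both. With total-read scaling Tacr3 was not called.

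Per kilobase of all annotated exons, the receptors in the escalating library ran in the order Oprd1 (6.27 CPM), Tacr1 (5.74), Oprm1 (4.13), Oprk1 (3.76) and Oprl1 (1.90). The intervals of Oprd1 and Tacr1 overlapped, as did those of Oprm1 and Oprk1, so these intervals do not settle the order within either pair. In the nonescalating library Oprd1 (8.33) and Tacr1 (7.32) were again highest, followed by Oprk1 (3.99), Oprm1 (3.90) and Oprl1 (2.87), and the intervals of the same pairs overlapped. With the longest transcript as the length, Oprm1 was highest in both libraries, at 13.7 and 12.9 CPM per kilobase in the escalating and nonescalating libraries; its 31 annotated transcripts cover 8037 exon bases, of which the longest transcript has 2420.

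**Figure D3:**
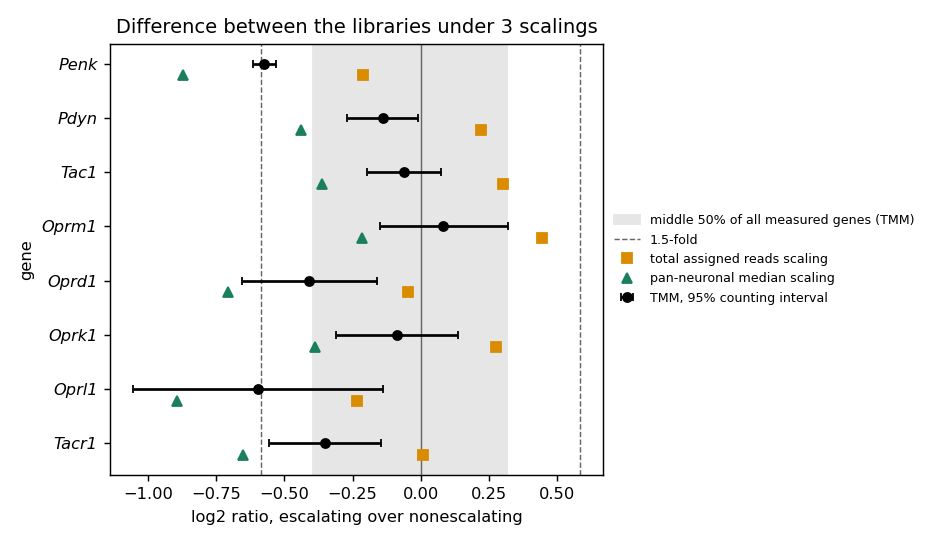
Log2 ratio of escalating over nonescalating for the 8 measured genes. Black points are the TMM-scaled value with its 95% counting interval, squares total-read scaling and triangles scaling to the median pan-neuronal gene. The grey band is the middle of all measured genes with TMM scaling and holds for the black points only. The median of all measured genes was 0.38 with total reads and -0.28 with the pan-neuronal median. Penk and Oprl1 stood lowest, at -0.57 and -0.59, and with TMM scaling Oprm1 alone lay above 0, while with total reads 5 genes did.

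Ratios between genes of 1 library need no scaling, so 16 pairs were compared as the read ratio in the escalating library over that in the nonescalating library. The balance of Penk reads to Tac1 and Pdyn reads was lower in the escalating library. The peptides themselves were not measured. Penk had 8.55 reads per Tac1 read in the escalating library and 12.2 in the nonescalating one, a quotient of 0.70 (exact 95% interval 0.64 to 0.77). Penk had 8.10 reads per Pdyn read in the escalating library against 10.9 in the nonescalating one, a quotient of 0.74 (0.67 to 0.81). Pdyn and Tac1 kept close to 1 ratio, with 1.06 Pdyn reads per Tac1 read in the escalating library and 1.12 in the nonescalating one (quotient 0.95, 0.83 to 1.08).

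Penk was also lower relative to Drd2 and Adora2a, markers of the neurons that make enkephalin. It had 5.32 reads per Drd2 read in the escalating library against 6.05 in the nonescalating one (quotient 0.88, 0.82 to 0.95), and 4.74 against 5.98 reads per read of the adenosine receptor gene Adora2a (0.79, 0.74 to 0.85). Of the 9 measured genes of the Drd2 neuron list, 8 had a higher log2 ratio than Penk and 1, Plxdc1, a lower one. Penk lay at percentile 18.2 of all measured genes, so most measured genes of any kind also had a higher ratio. The count of 8 of 9 therefore does not set this list apart. Pdyn and Tac1 were higher relative to Drd1 itself. Pdyn had 0.355 reads per Drd1 read in the escalating library and 0.304 in the nonescalating one (1.17, 1.05 to 1.29), and Tac1 had 0.337 against 0.273 (1.23, 1.11 to 1.37). Against the whole Drd1 neuron list they stood in the middle: 5 of 10 genes had a lower log2 ratio than Pdyn and 5 a higher one, and the same counts held for Tac1. Among all measured genes Pdyn lay at percentile 38.4 and Tac1 at percentile 44.0. In the Drd1 neuron list 0 genes were called higher and 2 lower (median log2 ratio -0.12), or 3 higher and 2 lower with total reads (median 0.24). In the Drd2 neuron list 0 were called higher and 1 lower (median -0.24), with the same calls and a median of 0.13 with total reads. Over all measured genes, 9.33% were called higher and 17.1% lower with TMM scaling (median 0.02), and 31.5% and 9.41% with total reads (median 0.38).

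Among receptors, Oprm1 was higher relative to Oprd1, with 1.32 Oprm1 reads per Oprd1 read in the escalating library against 0.935 in the nonescalating library (quotient 1.41, 1.11 to 1.78). The ratio of Oprm1 to Oprk1 had a quotient of 1.13 (0.90 to 1.41) and that of Oprd1 to Oprk1 one of 0.80 (0.63 to 1.01), and that of Oprk1 to Oprl1 one of 1.42 (0.998 to 2.03); all 3 intervals included 1. Setting ligands against receptors, Penk per Oprm1 read was lower, at 24.1 in the escalating against 38.0 in the nonescalating library (0.63, 0.54 to 0.75), and Tac1 per Tacr1 read higher, at 2.51 against 2.06 (1.22, 1.03 to 1.45). Pdyn per Oprk1 read was 2.88 against 2.98 (0.96, 0.81 to 1.15), and Penk per Oprd1 read 31.7 against 35.6 (0.89, 0.75 to 1.06). Leaving out the pair with Pnoc, 9 of 15 quotients had an interval that excluded 1. The ratios of single genes excluded 1 about as often, with 29.4% of all measured genes wholly below 1 and 27.2% wholly above with TMM scaling. The pairs share genes and so are not independent.

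**Figure D4:**
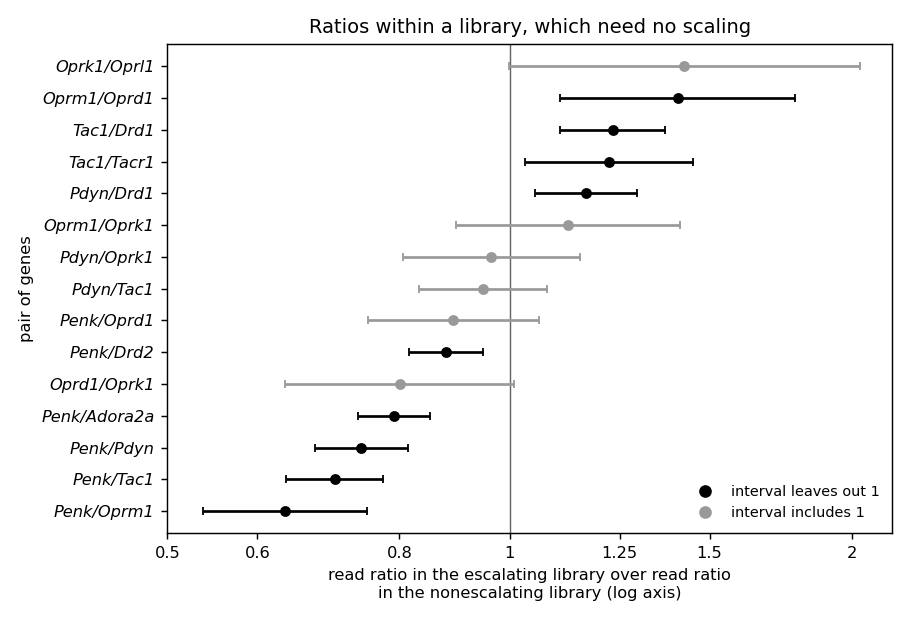
Quotient of the read ratio in the escalating library over that in the nonescalating library for 15 pairs of genes, on a log axis, with exact 95% intervals; black points have an interval that excludes 1. Every pair with Penk on top lay below 1, from 0.63 against Oprm1 to 0.89 against Oprd1, while Pdyn and Tac1 against Drd1 lay above 1.

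The promoter windows of Pdyn and Tac1, the precursors of the Drd1 neurons, are shown. Each runs from 250 bases before to 50 after the start that RefSeq gives (GRCm38.p6). The Pdyn window lies on the minus strand at chr2:129699889-129700188 and the Tac1 window on the plus strand at chr6:7554811-7555110. Capitals mark matches on either strand to the cyclic AMP response element TGACGTCA, its variant TGCGTCA, its half-site CGTCA, the AP-1 motif TGANTCA and the E-box CACGTG.
Pdyn: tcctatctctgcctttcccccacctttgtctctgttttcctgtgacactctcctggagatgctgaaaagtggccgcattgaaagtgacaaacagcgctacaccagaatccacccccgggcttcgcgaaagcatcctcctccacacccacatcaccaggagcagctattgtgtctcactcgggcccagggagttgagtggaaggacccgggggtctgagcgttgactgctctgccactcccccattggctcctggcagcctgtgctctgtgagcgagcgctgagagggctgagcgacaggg
Tac1: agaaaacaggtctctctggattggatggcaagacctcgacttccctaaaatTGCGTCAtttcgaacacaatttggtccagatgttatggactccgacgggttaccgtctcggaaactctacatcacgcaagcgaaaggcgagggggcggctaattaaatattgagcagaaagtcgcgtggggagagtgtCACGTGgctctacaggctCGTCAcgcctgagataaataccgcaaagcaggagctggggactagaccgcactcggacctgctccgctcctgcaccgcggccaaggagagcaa
The Tac1 window held TGCGTCA, with a half-site inside it, beginning 199 bases before the start, an E-box at 61 bases before and another half-site at 43 bases before. The Pdyn window held none of the motifs. Of 32851 promoter windows of the same length, 1.79% held TGACGTCA, 2.12% TGCGTCA, 20.8% CGTCA, 7.81% TGANTCA and 7.15% CACGTG. RefSeq windows matched 6 of the 9 genes (Pdyn, Tac1, Oprm1, Oprd1, Oprl1 and Tacr1; the most upstream window of each was searched). Beside Tac1, the window of Oprd1 held an E-box at 86 bases before the start and that of Tacr1 a half-site at 226 bases before. A match is a run of letters and not a shown binding site.

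Genes of the precursor-processing list were mostly lower in the escalating library. Of 11 genes for precursor processing, all measured, 8 were called lower and 0 higher, with a median log2 ratio of -0.76, beside 17.1% called lower and a median of 0.02 over all genes; with total-read scaling 4 were called lower (9.41% of all genes). Cpe, the carboxypeptidase that trims basic residues after the first cut, had 2402 reads in the escalating library against 8641 in the nonescalating one and was 4.70-fold lower (4.50 to 4.92). Ctsl, which encodes cathepsin L, was 2.67-fold lower (2.33 to 3.05), with 328 against 669 reads. The proprotein convertase genes Pcsk6 and Pcsk1 were 2.64-fold (1.86 to 3.80) and 2.50-fold lower (1.61 to 3.93), Pcsk1 on only 33 against 63 reads. Also among the 8 were Pcsk1n (ratio 0.58, 0.52 to 0.64) and Scg5 (0.67, 0.58 to 0.76), which do not encode processing enzymes. With total reads neither Pcsk1n nor Scg5 was called. Pcsk2, the convertase that makes enkephalin and dynorphin peptides in neurons, was not called, with 2368 reads in the escalating library and 1833 in the nonescalating one and a ratio of 0.99 (0.93 to 1.05). Beside this list, the summed astrocyte markers were 2621 CPM in the escalating library against 17435 CPM in the nonescalating one. Of these sums Slc1a2 alone made up 1421 against 13256 CPM. The summed microglia markers were 36.5 against 1687 CPM. The part of glial RNA in the lower values of Cpe and the others was not tested.

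Of 12 dense-core vesicle genes 4 were called lower and 1 higher (median log2 ratio -0.36; with total reads 1 lower, 2 higher and a median of 0.00), beside 17.1% lower and 9.33% higher of all measured genes with TMM scaling and 9.41% and 31.5% with total reads. Scg3, a secretogranin, was 4.30-fold lower (3.98 to 4.65), with 847 reads in the escalating library against 2784 in the nonescalating one, and Syt4, a synaptotagmin of these vesicles, 1.61-fold lower (1.48 to 1.74). Cadps2, a vesicle priming factor, was 1.64-fold higher (1.21 to 2.23), with 139 against 65 reads. Of 9 measured peptide-degrading enzymes 2 were called lower and 0 higher (median -0.12, or 0.24 with total reads): Ace, angiotensin-converting enzyme, at 1.81-fold (1.43 to 2.29) and Ece1, an endothelin-converting enzyme, at 1.61-fold (1.48 to 1.76). Mme, which encodes the enkephalin-degrading protease neprilysin, was not called, with 1354 reads in the escalating library and 1128 in the nonescalating one and a ratio of 0.92 (0.85 to 0.99). With total-read scaling 0 of these enzymes were lower and 2 higher, Dpp3 and Thop1. The 2 of 9 called lower with TMM scaling is near the 17.1% of all measured genes.

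Downstream of the receptors, genes were called at shares to be read against the 9.33% higher and 17.1% lower of all measured genes with TMM scaling, and 31.5% and 9.41% with total reads. Of 12 measured genes listed as G proteins and channels of opioid receptors, 2 were called lower and 0 higher (median 0.00). They were Gnai2, an inhibitory G protein alpha subunit, at 1.89-fold (1.73 to 2.07), and Gng7, the gamma subunit abundant in striatum. Gng7 was 1.56-fold lower (1.51 to 1.60) on 7951 against 9460 reads. Which receptors these subunits serve in this tissue was not tested. Of 10 genes of the Gq and phospholipase C branch used by Tacr1, 3 were called lower and 0 higher (median 0.03), with Plcb2 at 3.23-fold (2.12 to 5.03), Plcb3 at 2.04-fold (1.56 to 2.66) and the calcium release channel gene Itpr1 at 1.66-fold (1.62 to 1.70). Of 13 measured genes of receptor desensitisation, 1 was called higher and 1 lower (median -0.16). Rgs14, a regulator of G protein signalling, was 1.58-fold higher (1.32 to 1.91), with 360 against 174 reads, and Wls, a membrane protein that binds the mu receptor, 3.10-fold lower (2.15 to 4.54), with 43 against 102 reads. With total-read scaling Gnai2, Gng7 and Itpr1 were not called, and the 3 lists held 3, 2 and 3 genes called higher and 0, 2 and 1 called lower, in the order given.

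Of 5 other neuropeptide precursors measured (Cck, Sst, Npy, Nts and Nmb), 0 were called in either direction with TMM or total-read scaling (median log2 ratio 0.02 and 0.38). Sst had 974 reads in the escalating library against 735 in the nonescalating one, a ratio of 1.01 (0.92 to 1.12). Of 15 transcription factors known to act on peptide genes or in the neurons that make them, 1 was called higher and 1 lower (median 0.15), against 7 higher and 1 lower with total reads (median 0.51) and a median of -0.15 with the pan-neuronal median. Junb, a partner in AP-1, was 1.65-fold higher (1.07 to 2.57) on 71 against 33 reads, and Rest, a repressor of neuronal genes in other cells, 3.47-fold lower (2.24 to 5.52) on 29 against 77 reads. Over all 8 lists of this kind, 3 of 87 measured genes were called higher and 21 lower with TMM scaling, against 19 higher and 9 lower with total-read scaling and 0 higher and 36 lower with the pan-neuronal median, under which Cadps2, Rgs14 and Junb were not called. Over all measured genes the shares moved the same way: 9.33% were higher and 17.1% lower with TMM scaling, 31.5% and 9.41% with total reads, and 2.62% and 29.5% with the pan-neuronal median.

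**Figure D5:**
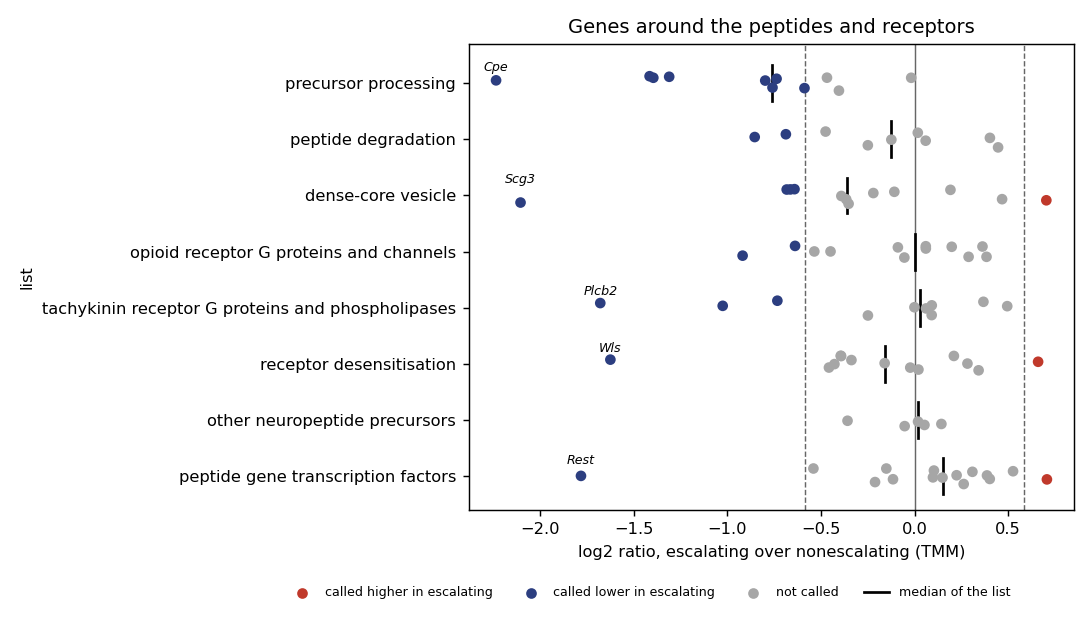
Log2 ratio of escalating over nonescalating with TMM scaling for the measured genes of 8 lists; red and blue points were called higher and lower, dashed lines mark 1.5-fold and black bars the median of each list. Precursor processing had the lowest median, -0.76, with Cpe at -2.23.

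Markers of the striosome and matrix compartments, in which the mu receptor is unevenly spread, had similar medians. Of 9 striosome genes 4 were called lower and 0 higher (median -0.34), or 3 lower and 1 higher with total reads (median 0.02), led by Bach2 at 2.21-fold (1.81 to 2.71), and of 7 measured matrix genes 0 were called in either direction (median -0.31, or 0.05 with total reads, which called 3 higher). The shares of all measured genes were 17.1% lower and 9.33% higher with TMM scaling (median 0.02), and 9.41% and 31.5% with total reads (median 0.38). Of 11 measured interneuron genes 2 were called higher and 2 lower (median 0.05), or 5 higher and 1 lower with total reads (median 0.41). Th, the dopamine synthesis enzyme, was called higher under TMM, total-read and pan-neuronal scaling (TMM log2 ratio 0.95), with 102 against 40 reads in the escalating and nonescalating libraries. Chat, Slc18a3 and Slc5a7, which mark the cholinergic interneurons that carry Tacr1, had log2 ratios of 0.45, 0.23 and -0.38 and were not called with TMM scaling. Total-read scaling called Chat and Slc18a3 higher and did not call Slc5a7. Slc17a8, also of the interneuron list, went the other way from Chat and Slc18a3. It was called lower under TMM, total-read and pan-neuronal scaling (TMM log2 ratio -1.13), with 122 reads in the escalating library against 204 in the nonescalating one.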

How the data were processed

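Total RNA of dissected, homogenised dorsal striatum was sequenced as 1 input library per group, which the titles identify. The submitters' processing notes name STAR 2.0.0e, mm10 and HTSeq. The deposited values are the authors' raw counts per gene symbol; rows that name no gene stayed out, leaving 53.8% of listed reads for the escalating library and 55.3% for the nonescalating one.

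Library sizes were scaled with TMM (edgeR 4.0.16, R 4.3.3; factors 1.13 and 0.882 for the escalating and nonescalating libraries). Log2 ratios used a pseudocount of 0.5. Intervals are 95% exact: Clopper-Pearson on the split of a gene's reads, Poisson for CPM and conditional for pairs; they cover counting error only. No model was fitted, since 1 library per group leaves no residual. The calculation was run on simulated counts with counting noise only and known library sizes. Such counts cannot test variation between animals or the choice of scaling. Lengths, positions and overlaps came from GENCODE M21, which matched 71.2% of the symbols.

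The 9 genes and all lists were chosen with earlier results of these data known. Of each list the text names called genes, at most the 4 with the largest ratios, and genes of the fixed pairs. Pcsk2, Pcsk1n, Scg5, Mme, Dpp3, Thop1, Pomc, Tac2, Tac4, Tacr2, Sst, Chat, Slc18a3 and Slc5a7 were named after their values were seen, as were Ipcef1 and A830012C17Rik for their overlap. Nxph4, no neuropeptide gene, was dropped from its list. Alternatives changed the scaling (total reads, upper quartile, pan-neuronal median, size factors of DESeq2 1.42.0), the filters, the pseudocount, the threshold and the gene length. Python 3.11.15, pandas 2.3.3 and scipy 1.17.1 were used.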

Additional observations from a re-analysis of the deposited data

How the results depend on the processing

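Of 48 log2 ratios under alternatives, 33 stayed inside the counting interval of the main value and 15 left it. With total assigned reads the log2 ratios were -0.21 for Penk, 0.22 for Pdyn, 0.30 for Tac1, 0.44 for Oprm1, -0.047 for Oprd1, 0.27 for Oprk1 and 0.0099 for Tacr1. With the pan-neuronal median they were -0.87 for Penk, -0.44 for Pdyn, -0.36 for Tac1, -0.22 for Oprm1, -0.71 for Oprd1, -0.39 for Oprk1 and -0.65 for Tacr1. The median of all measured genes was 0.38 with total reads and -0.28 with the pan-neuronal median. With upper-quartile scaling Penk was at -0.51. Genes of the family called lower numbered 1 in the main setting, 0 with total reads, upper-quartile scaling, a pseudocount of 5 or a threshold of 2-fold, and 4 with the pan-neuronal median; genes called higher were 0 throughout. Genes of the 8 pathway lists called lower numbered 21 in the main setting, 9 with total reads, 36 with the pan-neuronal median and 9 at 2-fold, and those called higher 3, against 19, 0 and 0. DESeq2 size factors, TMM without the 10 genes with most reads and the count filters left these counts within 1.5 times. The within-library ratios are free of scaling. Gene length moved 12 of 18 levels per kilobase beyond counting error. No paired analysis was possible because each group is 1 library. Pnoc, Tac2, Tac4, Pomc and Tacr2 had too few reads for a ratio.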
